A study of Cunninghamia lanceolata with 2 samples.

Results

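The genes described here are the 38 assembled genes of Chinese fir (Cunninghamia lanceolata) roots that the deposited table places in the KEGG spliceosome pathway and that are not annotated as heat shock proteins, out of 32731 genes in all. The pathway holds 66 genes in the table, and the 28 annotated as heat shock 70kDa proteins were left out by that rule. The spliceosome is the nuclear machine that removes introns from pre-mRNA. It is built from small nuclear ribonucleoprotein particles (snRNPs), which assemble on every intron in turn. Each is a small RNA held by proteins of its own and, in most, by a ring of Sm proteins. U1 pairs with the start of the intron and U2 with its branch point. The U4/U6.U5 tri-snRNP joins before the Prp19-associated proteins help to form the catalytic centre. In plants this machinery is expressed in all growing tissues, and alternative splicing is a known layer of the response to nutrient shortage.

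Seedlings of no stated genotype were grown for 1 month in dilute Hoagland solution and then kept for 4 months at 1 of 2 phosphorus supplies. The low-phosphorus group (LP) had the phosphorus of distilled water, below 0.01 mM, and the control group (CK) had 1 mM. Each group is 1 RNA-seq library of roots, and the labels give no number of seedlings per library, so phosphorus supply, plants and library cannot be told apart and no test across plants was possible. "Higher" and "lower" describe these 2 libraries, and in bulk root RNA fewer cells of a type and less RNA per cell cannot be told apart. Estimated reads came to 48502899 for LP and 17848911 for CK, 2.72 times fewer. The 38 genes had 8 to 26134 reads in LP (median 1177) and 10 to 6208 in CK (median 571), and none had 0 reads in either library. Levels are RPKM, reads per kilobase of gene and per 1000000 reads of the library. The 25 genes whose annotation names root hairs or the Casparian strip summed to 1455 RPKM at low phosphorus and 1422 RPKM in the control. Of these, 10 were higher in LP and 15 lower, with a median log2 ratio of LP to CK of -0.27. The 65 photosynthesis genes, markers of green tissue, summed to 1005 RPKM and 1517 RPKM. There 35 were higher in LP and 30 lower, with a median of 0.03. The part of both lists in the results below was not tested.

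Among genes that averaged 1 RPKM or more, the spliceosome genes had the same median log2 ratio as the whole table. The medians of their classes ranged from -0.79 to 0.16. The median log2 ratio of LP to CK, taken on RPKM plus 1, was -0.16 over the 38 genes (middle 50% from -0.88 to 0.15) and -0.16 over the 30843 genes that averaged 1 RPKM or more (-0.68 to 0.27). None of the 38 was at least 2-fold higher in LP, against 8.68% of all genes, and 7 were at least 2-fold lower, against 16.2% of all genes. In all, 23 of the 38 had a ratio below 0, a share close to the 59.7% of all genes. All 38 passed the filter on low values. At a stricter filter of 5 RPKM, 32 of them remained, with a median of -0.16 against -0.03 for all genes. Of those 32, 5 were at least 2-fold lower, against 8.11% of all genes. The summed level of the group was 1440 RPKM at low phosphorus and 1336 RPKM in the control, 1.08 times as high, and the same ratio over all genes kept was 1.08. That sum depends on 1 gene: without comp19566_c0 the other 37 genes added up to 928.6 RPKM at low phosphorus and 1004 RPKM in the control, a ratio of 0.92.

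**Figure D1:**
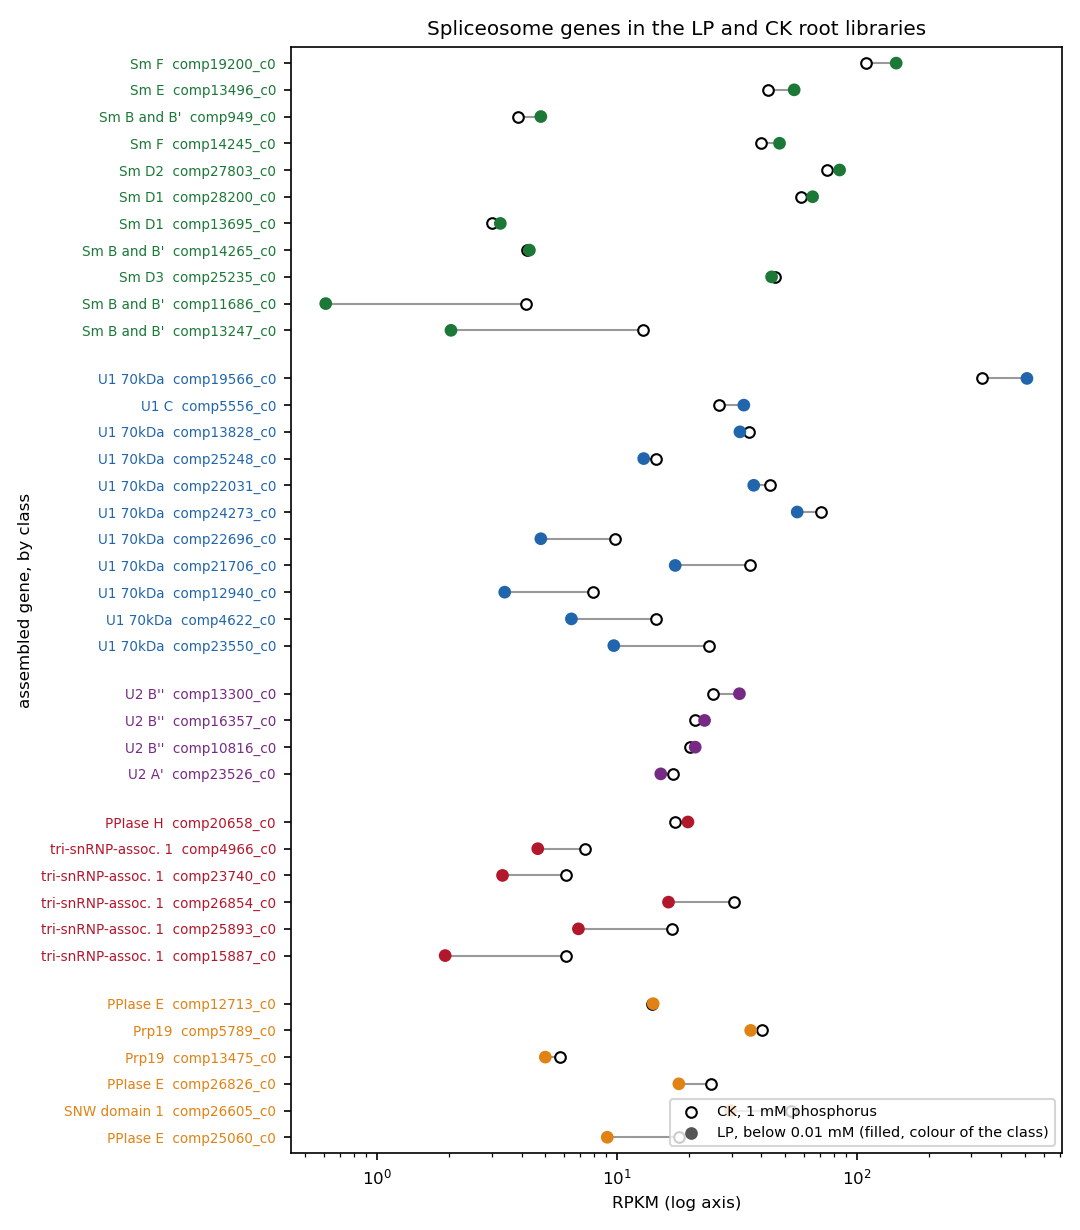
RPKM of each of the 38 spliceosome genes in the LP library (filled, coloured by class) and the CK library (open), on a log axis, grouped by class and ordered within a class by log2 ratio. Most Sm ring and U2 genes sit slightly to the right in LP, whereas all 5 genes named tri-snRNP-associated protein 1 sit to the left, the lowest at 1.92 RPKM against 6.13 RPKM.

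The product names fall into 5 of the 10 classes drawn up from the KEGG map, and the median of all genes, -0.16, is the point against which each class is read. The Sm ring (11 genes) had a median log2 ratio of 0.16 and the U2 snRNP (4 genes) of 0.10, while the U1 snRNP (11 genes) had -0.32, Prp19-related genes (6 genes) -0.30 and the tri-snRNP (6 genes) -0.79. Relative to the median of all genes these became 0.32, 0.25, -0.16, -0.14 and -0.63, so no class changed side. Relative to genes of like abundance and length the medians were 0.04 for the Sm ring, -0.25 for U1, -0.12 for Prp19-related genes and -0.41 for the tri-snRNP, and U2 changed side to -0.03. None of the 38 carried a product name of the other 5 classes, which were helicases and second-step factors, the exon junction and export complexes, cap-binding proteins, SR proteins and hnRNPs.

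**Figure D2:**
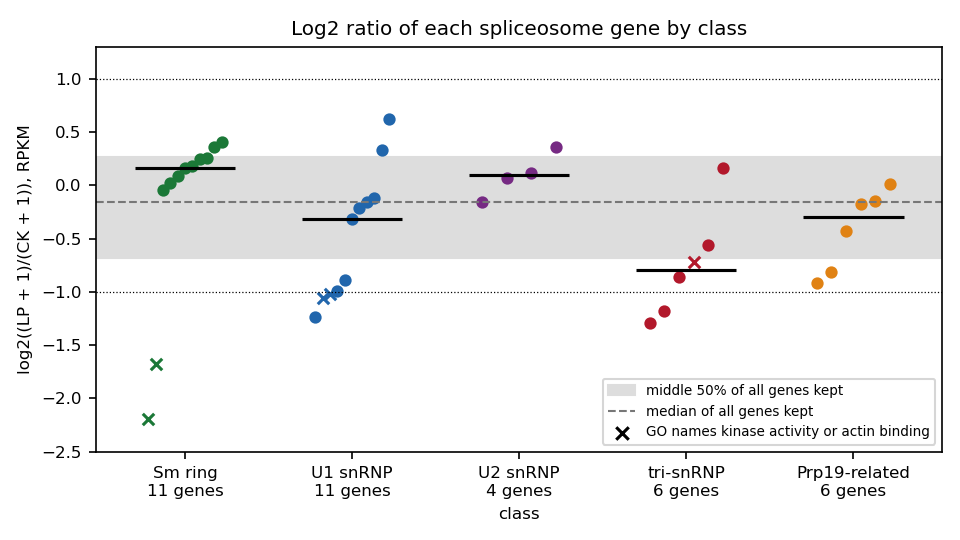
Log2 ratio of LP to CK on RPKM plus 1 for each spliceosome gene, by class; black bars are class medians, the grey band is the middle 50% of all genes kept (-0.68 to 0.27) and the dashed line their median. Dotted lines mark 2-fold, and crosses mark the 5 genes whose GO terms name protein kinase activity or actin binding, 4 of which are below the lower dotted line.

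The Sm proteins form the ring that holds most of the snRNAs, and all 7 genes named for D1, D2, D3, E and F stayed within 2-fold. The Sm F gene comp19200_c0 had 146 RPKM at low phosphorus and 109 RPKM in the control, 1.33-fold higher (95% interval 1.25 to 1.42; intervals here are exact and cover counting error of the reads only). A second Sm F gene, comp14245_c0, a fragment of 284 bases, had 47.6 RPKM and 39.8 RPKM. Both were higher in LP, though the interval of the short one, 0.996 to 1.45, included 1. The Sm E gene comp13496_c0 stood at 54.7 RPKM against 42.4 RPKM, a 1.29-fold gain (1.2 to 1.39). The Sm D2 gene comp27803_c0 had 84.7 RPKM and 74.7 RPKM (1.13-fold, 1.06 to 1.21). The Sm D1 gene comp28200_c0 had 65.3 RPKM and 58.3 RPKM (1.12-fold, 1.05 to 1.2). These abundant Sm genes lay between 1.12 and 1.33 times their CK level. The Sm D3 gene comp25235_c0 was level, at 44.1 RPKM at low phosphorus and 45.5 RPKM in the control (0.969-fold, 0.893 to 1.05). A second D1 gene, comp13695_c0, was scarce at 3.26 RPKM and 3 RPKM. These 7 genes had a median log2 ratio of 0.18, with 6 above 0 and 1 below. Relative to genes of like abundance and length the median was 0.10. The 7 added up to 445.4 RPKM at low phosphorus and 373.1 RPKM in the control, 1.19 times as much. The same ratio was 1.08 over all genes kept.

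The 4 genes named Sm B and B' were unlike the rest of the ring in level and in ratio. Sm B completes the ring beside D3, yet these genes reached no more than 4.81 RPKM at low phosphorus and 12.9 RPKM in the control, under every other ring gene in CK but the scarce D1 gene, per length. The gene comp13247_c0 had 2.03 RPKM at low phosphorus and 12.9 RPKM in the control, 6.33-fold lower (5.53 to 7.27). The gene comp11686_c0 had 0.61 RPKM at low phosphorus and 4.16 RPKM in the control, on 8 and 20 reads, 6.82-fold lower (2.87 to 17.8). Both carry GO terms for a plasma membrane protein serine/threonine kinase and none for RNA, so their annotations conflict. The other 2, comp14265_c0 at 4.31 RPKM and 4.22 RPKM and comp949_c0 at 4.81 RPKM and 3.86 RPKM, are fragments of 312 and 211 bases, and both intervals included 1 (0.595 to 1.83 and 0.602 to 2.83). Only comp14265_c0 of the 4 has a GO term for RNA binding. The pair with kinase terms thus holds both of the Sm ring genes that were at least 2-fold lower.

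The U1 snRNP recognises the start of the intron, and 10 genes carry the name of its 70kDa protein, which binds the U1 RNA. The most abundant of the 38 genes was among them. The gene comp19566_c0 had 511 RPKM at low phosphorus and 332 RPKM in the control, 1.54-fold higher (1.5 to 1.58), the highest ratio of the set. It has no GO term and is placed in the KOG class for RNA processing. The other 9 genes of that name were all lower in LP. Of these, 4 were at most 1.25-fold lower on RPKM. Levels were 32.5 RPKM and 35.4 RPKM for comp13828_c0, and 12.9 RPKM and 14.5 RPKM for comp25248_c0. For comp22031_c0 they were 37.1 RPKM and 43.3 RPKM, and for comp24273_c0 56.4 RPKM and 70.5 RPKM. The last was 1.25-fold lower (1.2 to 1.31), and its GO terms name cytidine to uridine editing of mRNA, while those of comp22031_c0 name control of mRNA stability. Of the 4, comp25248_c0 is the one with splicing terms. On reads per library total comp22031_c0 was 1.4-fold lower.

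The remaining 5 genes of the U1 70kDa name were about 2-fold lower or more, and they are mixed by GO term. The gene comp23550_c0 had 9.69 RPKM at low phosphorus and 24.1 RPKM in the control, 2.49-fold lower (2.34 to 2.65), and its terms name an ATP-dependent RNA helicase. The gene comp21706_c0, with no GO term, had 17.5 RPKM and 35.7 RPKM, 2.04-fold lower (1.93 to 2.16). Both are over 5000 bases long with 14 assembled transcripts each, and for comp21706_c0 the reads per library total gave 2.8-fold lower. The gene comp22696_c0, with splicing terms, had 4.81 RPKM and 9.77 RPKM, 2.03-fold lower (1.84 to 2.25). With 1 added to each RPKM, comp21706_c0 and comp22696_c0 had log2 ratios of -0.99 and -0.89 and so were not counted as 2-fold lower. The gene comp4622_c0, with kinase terms, had 6.45 RPKM and 14.5 RPKM (2.25-fold lower, 1.96 to 2.57). The gene comp12940_c0, with terms for actin binding, had 3.4 RPKM and 7.91 RPKM (2.33-fold lower, 1.69 to 3.2). The single gene of U1 protein C, a zinc-finger protein that steadies the pairing of U1 with the intron, went the other way: comp5556_c0 had 33.8 RPKM at low phosphorus and 26.6 RPKM in the control, 1.27-fold higher (1.17 to 1.38).

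All 4 genes of the U2 snRNP, which marks the branch point, stayed within 2-fold of their CK level. The U2 A' gene comp23526_c0 had 15.2 RPKM at low phosphorus and 17.1 RPKM in the control (1.12-fold lower, 1.01 to 1.24). Its partner U2 B'' is named for 3 genes. Of these, comp13300_c0 had 32.4 RPKM and 25 RPKM (1.29-fold higher, 1.13 to 1.49). The gene comp16357_c0 had 23.2 RPKM and 21.2 RPKM, and comp10816_c0 had 21.2 RPKM and 20.1 RPKM, with intervals that included 1 (0.986 to 1.21 and 0.911 to 1.22). Together the 3 U2 B'' genes added up to 76.7 RPKM at low phosphorus and 66.4 RPKM in the control.

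The tri-snRNP brings the catalytic RNAs to the intron, and the genes placed in its class by product name had the lowest class median. All 5 genes named U4/U6.U5 tri-snRNP-associated protein 1, whose human counterpart is needed to recruit the tri-snRNP, were lower in LP. They added up to 33.2 RPKM at low phosphorus and 67.1 RPKM in the control, 2.02-fold lower. Their GO terms are not all alike, so it is not settled that all 5 code for this protein. The gene comp26854_c0, with RNA helicase terms, had 16.4 RPKM and 30.6 RPKM (1.87-fold lower, 1.76 to 1.98). The gene comp25893_c0 had 6.9 RPKM and 16.9 RPKM (2.45-fold lower, 2.25 to 2.67). A 348-base fragment with the same zinc ion and nucleic acid binding terms, comp4966_c0, had 4.67 RPKM and 7.33 RPKM (1.57-fold lower, 1.02 to 2.37). The lowest of the 5 in ratio was comp15887_c0, a gene with RNA binding terms, at 1.92 RPKM against 6.13 RPKM (3.19-fold lower, 2.5 to 4.08). The gene comp23740_c0, with kinase terms, had 3.33 RPKM and 6.11 RPKM (1.83-fold lower, 1.59 to 2.12). No interval of these 5 included 1. The sixth gene of the class, comp20658_c0 for cyclophilin H, a prolyl isomerase of the U4/U6 particle, had 19.7 RPKM at low phosphorus and 17.5 RPKM in the control, with an interval that included 1 (0.984 to 1.3).

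The Prp19-related genes act when the spliceosome becomes catalytic. Prp19 itself is a ubiquitin ligase, and its gene comp5789_c0 had 36.1 RPKM at low phosphorus and 40 RPKM in the control (1.11-fold lower, 1.05 to 1.18). A second gene of that name, comp13475_c0, had 5.02 RPKM and 5.79 RPKM on 225 and 70 reads. By reads per library total it was 1.18-fold higher rather than lower, so its direction depends on the unit. The gene comp26605_c0 for SNW domain-containing protein 1, called SKIP in Arabidopsis, where it takes part in splicing and in the circadian clock, had 29.8 RPKM and 53 RPKM, 1.78-fold lower (1.69 to 1.88). It carries splicing terms only and is the most abundant gene of the set with a drop of that size. Cyclophilin E, a prolyl isomerase with an RNA-binding domain, is named for 3 genes. Of these, comp25060_c0 had 9.1 RPKM and 18.1 RPKM (1.99-fold lower, 1.76 to 2.26), while comp12713_c0 was level at 14.1 RPKM and 14 RPKM. Both have splicing terms. The third, comp26826_c0, has terms for mRNA cleavage and polyadenylation and had 18.1 RPKM and 24.7 RPKM (1.36-fold lower, 1.28 to 1.45).

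The annotations of the 38 genes do not always speak of splicing, and the ratios were also read by that. Of the 38 genes, 20 are in the KOG class for RNA processing, and 25 are in that class or have a GO term naming splicing, an snRNP or a ribonucleoprotein. Of those 25, none was at least 2-fold apart on RPKM plus 1, and their median log2 ratio was 0.02 (middle 50% from -0.43 to 0.18). The 13 others held all 7 genes that were at least 2-fold lower, with a median of -1.02. This division was made after the values had been seen, and it follows level too: the 25 had a median of 25 RPKM in the control and the 13 had 12.9 RPKM. On the plain ratio of RPKM, 9 genes were at least 2-fold lower and 0 were higher, and the 2 added genes, comp21706_c0 and comp22696_c0, belong to the 25. On reads per library total, 10 genes were at least 2-fold lower and 0 higher, and 3 of the 10 belong to the 25, comp26854_c0 (2.06-fold lower) beside those 2. On those scales the division by annotation no longer matches the 2-fold limit. The 5 genes with kinase or actin terms added up to 15.8 RPKM at low phosphorus and 45.5 RPKM in the control, a small part of the total. The authors' deposited table gives a yes call to comp13247_c0, comp21706_c0, comp23550_c0 and comp25893_c0 among the 38, all lower in LP. Every yes call has an absolute log2 fold change of at least 1. The highest deposited value of the 38, 0.62 for comp19566_c0, was under that limit, so none was called higher. Across that table, 5.49% of the genes kept have a yes call and are lower in LP, and 5.59% have one and are higher. Those calls compare the reads of 2 libraries, and all 3416 of them have a p-value up to 0.05 and an absolute log2 fold change of at least 1, whereas 1743 have an FDR up to 0.05.

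**Figure D3:**
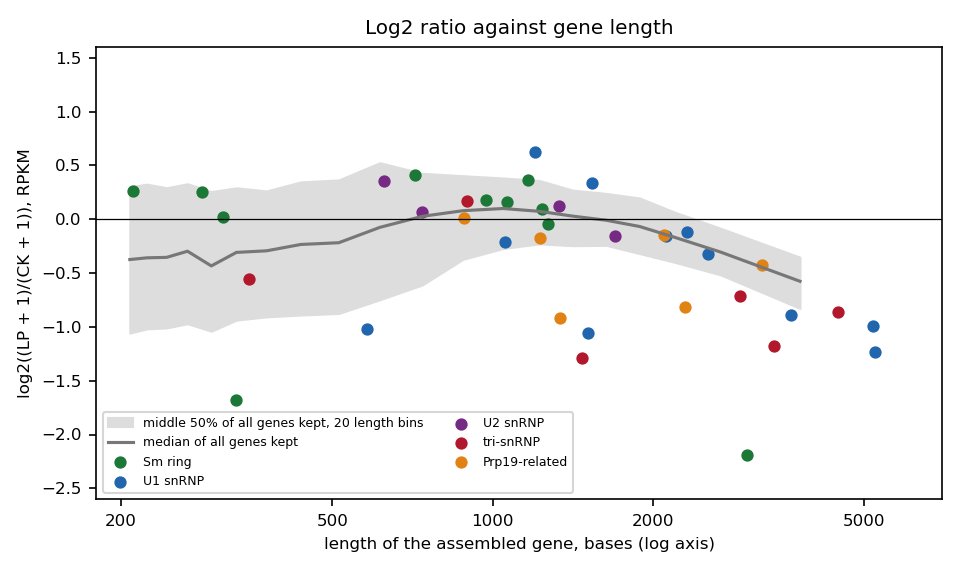
Log2 ratio of LP to CK on RPKM plus 1 against the length of the assembled gene (log axis) for the 38 spliceosome genes, coloured by class; the grey line and band are the median and the middle 50% of all genes kept in 20 bins of length. All 13 spliceosome genes of 2000 bases or more lie below 0, where the line for all genes also falls.

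Gene length moved with these ratios. All 13 spliceosome genes of at least 2000 bases were lower in LP, with a median log2 ratio of -0.81, and the 4801 genes of that length in the whole table had a median of -0.34, with 80.4% of them below 0. The 13 genes from 1000 to 1999 bases had a median of -0.04 (all genes 0.02), and the 12 shorter ones 0.12 (all genes -0.20). The Sm ring genes have a median length of 974 bases and the tri-snRNP genes of 2195 bases. Relative to genes of like abundance and length, the median of the 38 was -0.14 and that of the 13 long genes -0.25. By that measure 5 genes were at least 2-fold lower and 0 higher, against 9.98% and 10.6% of all genes. The part of length in the difference between the classes was not tested beyond these values. Of the 38 genes, 17 have more than 1 assembled transcript, and for 3 of them the ratio of RPKM and the ratio of reads differed by over 1.2 times: comp21706_c0, comp13475_c0 and comp22031_c0.

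Genes outside the pathway whose annotation text names splicing were counted as well. The annotation text of 181 further genes names splicing, the spliceosome or an snRNP, and 106 of these have no product name. The match also takes in some genes with terms for tRNA splicing, group II introns or intein protein splicing. Of the 181, 1 was at least 2-fold higher in LP and 11 were at least 2-fold lower, against 8.68% and 16.2% of all genes. The median log2 ratio of the 181 was -0.34 (middle 50% from -0.58 to -0.02). Their median length is 1856 bases, and relative to genes of like abundance and length their median was -0.10. The 4 genes with the bare product name small nuclear ribonucleoprotein resembled the Sm ring in ratio: all 4 were above 0, with a median of 0.31 (0.05 relative to genes of like abundance and length), and they added up to 290.4 RPKM at low phosphorus and 237.6 RPKM in the control. All 7 genes named pre-mRNA-processing factor 4 were below 0, from -0.59 to -0.06. All of these but comp10598_c0 and comp26810_c0 carry protein kinase terms. The median of the 7 was -0.30, which was 0.02 relative to genes of like abundance and length. The 17 genes with a GO term for the catalytic step 2 spliceosome had a median of -0.58, or -0.07 relative to such genes, with 1 at least 2-fold lower. That gene, comp17933_c0, has terms for a U5 snRNP helicase and had 6.42 RPKM at low phosphorus and 17.3 RPKM in the control; it and these product and GO groups were singled out after their values had been seen.

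**Figure D4:**
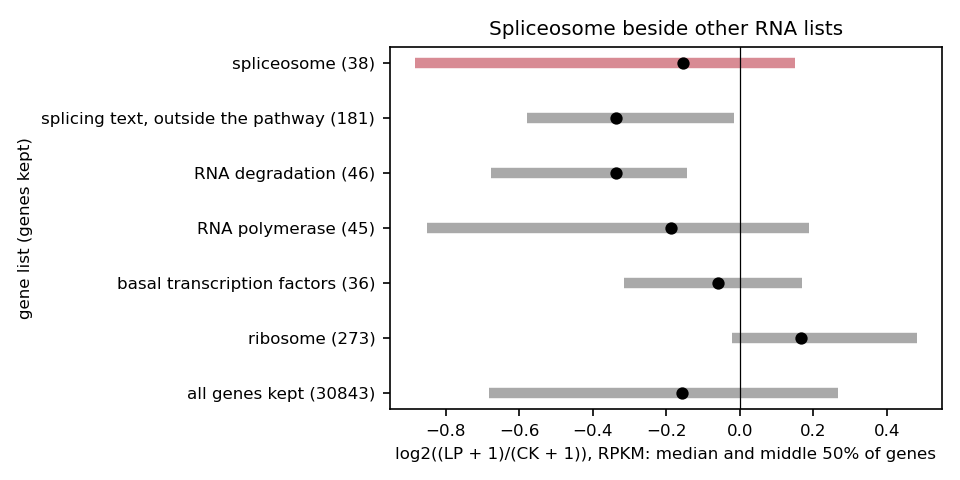
Median (point) and middle 50% (bar) of the log2 ratio of LP to CK on RPKM plus 1, with the number of genes kept in brackets. The lists are the spliceosome genes, the genes outside the pathway whose annotation text names splicing, 4 other KEGG pathways and all genes kept. The spliceosome median of -0.16 equals that of all genes, and its bar reaches from -0.88 to 0.15.

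Beside other RNA pathways of the table, the spliceosome had a middling median. Its lower quartile of -0.88 was the lowest, but close to the -0.85 of RNA polymerase. The 46 RNA degradation genes had a median of -0.34 with 2 at least 2-fold higher and 7 lower. The 45 RNA polymerase genes had -0.19 with 1 higher and 10 lower, and the 36 basal transcription factor genes -0.06 with 0 higher and 1 lower. The 273 ribosome genes had 0.17, with 61 at least 2-fold higher and 6 lower, where 8.68% and 16.2% of all genes were. Relative to genes of like abundance and length the ribosome changed side to -0.03, and the medians were -0.16 for RNA degradation, -0.11 for RNA polymerase, -0.01 for basal transcription factors and -0.14 for the spliceosome. The RNA transport and mRNA surveillance pathways, which were also planned, hold 0 genes in the table. With 1 library per group the differences between these lists were not tested.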

How the data were processed

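One table of assembled genes was used. The authors deposited estimated counts per gene and library, RPKM, a log2 fold change, a p-value with its FDR, and a yes or no call, per the file headers. Which assembler, aligner, counter and test they used is not given in the sources used here. Per the labels' protocols, poly(A) RNA was isolated from Trizol-extracted root RNA, though that text also mentions adipose material and a poly(A)- fraction. Among genes with at least 100 reads, the library total implied by reads, effective length and deposited RPKM was within 10% of the median for 85.9% (LP) and 91.3% (CK).

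From the deposited RPKM, log2((LP + 1)/(CK + 1)) was computed for genes averaging 1 RPKM or more, and genes at least 2-fold apart were counted. A gene's fold is its ratio of RPKM, with 95% exact (Clopper-Pearson) intervals from reads rounded to whole numbers, scaled to the RPKM ratio. No p-value was computed. The calculation was tested on simulated data. The rule for named genes (the 10 highest, the 10 lowest and the 10 most abundant at a mean of at least 2 RPKM, both ends of each class, and every gene of classes up to 6) took 34 of the 38; comp13695_c0, comp13828_c0, comp14265_c0 and comp25248_c0 were added after their values were seen, so that all are described. Members and lists were chosen with earlier results of these data known. Product names and GO terms come from the table itself, and near-identical genes can share reads. Python 3.11.15, pandas 2.3.3 and scipy 1.17.1 were used.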

Additional observations from a re-analysis of the deposited data

How the results depend on the processing

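No paired analysis was possible because each group has 1 library, and for the same reason no library could be left out. The count of genes at least 2-fold higher stayed at 0 except with heat shock genes kept in (1) and at a 1.5-fold limit (1). The 7 genes at least 2-fold lower became 9 with a pseudocount of 0.1 (21.9% of all genes), 1 with a pseudocount of 5 (3.27%), 13 at a 1.5-fold limit (28.6% of all genes), 4 by the authors' call and 1 of 15 with 1 member per product name. They became 3 without genes with kinase or actin terms and 0 among genes with KOG or GO terms for RNA processing; both of these alternatives, a length limit of 500 bases, and reads or length bins for the classes were chosen after seeing the data. Under the other settings the count was 5 to 7, or 9 of 62 with heat shock genes. The share of all genes that far lower, 16.2% in the main setting, moved more. On reads per 1000000 plus 1 it was 7.53%, where 7 of the 38 were lower. It was 8.11% at the 5 RPKM filter (5 of 32) and 12.9% when centred (5 of 38). Relative to genes of like abundance and length it was 9.98% (5 of 38). Once genes under 10 reads were dropped it was 11.8% (6 of 37). With 1 member per product name, the RPKM of all genes of a name was summed, and the median of -0.16 became 0.16. There the 10 genes of the U1 70kDa name become 1 entry of 692 RPKM in LP and 587.9 RPKM in CK. Most of that entry is comp19566_c0 (511 RPKM and 332 RPKM). The median became 0.0015 when centred on all genes and 0.02 among genes with RNA processing terms. The summed ratio of 1.08 became 0.92 without comp19566_c0 and 1.2 when divided by the median ratio of all genes. By class, U1 genes at least 2-fold lower were 3, but 5 with a pseudocount of 0.1 and 1 when centred. The 2 lower Sm ring genes became 1 with at least 10 reads in each library, where comp11686_c0 drops out. They also became 1 on reads per 1000000 of the library plus 1. The 2 lower tri-snRNP genes became 1 relative to genes of like abundance and length and 3 on reads per 1000000 plus 1. Depth limits comp11686_c0, comp949_c0 and comp14265_c0, which have 10 to 20 reads in CK.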

Other observations

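The 28 heat shock 70kDa genes that KEGG also places in the spliceosome pathway, through a chaperone found with the Prp19 complex, were left out above. Of these, 24 averaged 1 RPKM or more, with 1 at least 2-fold higher and 2 lower, against 8.68% and 16.2% of all genes. Their median log2 ratio was -0.41 (-0.11 relative to genes of like abundance and length). They added up to 1069 RPKM at low phosphorus and 1283 RPKM in the control, against 1440 RPKM and 1336 RPKM for the 38 spliceosome genes.

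Nuclear specks are the storage sites of splicing factors. Of genes outside the pathway with splicing text, the 33 with a speck term had 0 at least 2-fold higher and 3 lower. Their median log2 ratio was -0.28 (-0.08 relative to genes of like abundance and length). The 6 with a term for the U12-type spliceosome, which removes a rare class of introns, had a median of -0.03 (0.31 by that measure), and the 13 with a term for regulation of splicing had -0.23 (-0.05). The 7 genes named cell division cycle 2-like have splicing terms, but comp21882_c0, comp22562_c0 and comp26505_c0 have no kinase terms. All 7 were below 0, with a median of -0.73 (-0.63). They added up to 106.8 RPKM at low phosphorus and 187.3 RPKM in the control. These groups were chosen after their values had been seen.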
